A study of Mus musculus with 6 samples.

Results

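The genes described here are the 2 main metallothioneins (Mt1 and Mt2), their metal-sensing regulator Mtf1, and 7 zinc transporters: the importers Slc39a1, Slc39a8, Slc39a13 and Slc39a14 and the exporters Slc30a1, Slc30a4 and Slc30a7. They were picked by gene name from the count table, in which they are 10 of 54532 annotated genes, and all 10 passed the filter on low counts that left 16003 genes for testing. RNA of epididymal white adipose tissue (eWAT), the fat depot beside the epididymis, was sequenced in bulk from 3 mice with cancer cachexia and from 3 control mice, 1 library per mouse. Both groups were C57BL/6, and the study's methods describe male mice of 6 to 10 weeks. Cells of LLC (Lewis lung carcinoma), a tumor line of mouse lung, had been inoculated under the skin of the cachexia group, and tissue was taken at day 21. By those methods a mouse counted as cachectic once it had lost more than 20% of its body weight, so the cachexia group combines a growing tumor with severe wasting. Nothing in the labels ties a mouse of one group to a mouse of the other, and p-values measure the spread between these 6 animals. The libraries held 18766846, 18475204 and 18855546 counted reads in the control mice and 17278966, 15711022 and 14928766 in the cachectic mice.

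Metallothioneins are small cysteine-rich proteins that bind zinc and copper, buffer the free metal and take up oxidants. Their genes are switched on by zinc through MTF1, which binds short metal response elements, and also by glucocorticoids and by inflammatory cytokines such as IL-6. Zinc enters the cytosol through the ZIP proteins, encoded by the Slc39a genes, and leaves it for the outside or for vesicles through the ZnT proteins, encoded by the Slc30a genes. Slc39a8 and Slc39a14 encode ZIP8 and ZIP14, close relatives that also carry iron, manganese and cadmium and that are known as inflammation-responsive genes.

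The metal response element is where the metallothioneins and Slc30a1, a classic MTF1 target, meet in sequence, so the bases before their transcription starts are shown. They are RefSeq promoter windows on GRCm38.p6, all on the plus strand, and were ended before the first base of the gene in the count table. Capitals mark each match to the element's core, TGCACNC or TGCGCNC, on either strand. The windows shown are chr8:94178839-94179081 for Mt1, chr8:94172368-94172617 for Mt2 and chr1:191906531-191906766 for Slc30a1.
Mt1: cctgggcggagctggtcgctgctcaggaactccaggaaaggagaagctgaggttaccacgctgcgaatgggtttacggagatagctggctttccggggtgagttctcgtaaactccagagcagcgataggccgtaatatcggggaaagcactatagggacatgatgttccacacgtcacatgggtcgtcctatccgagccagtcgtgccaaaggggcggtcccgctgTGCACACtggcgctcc
Mt2: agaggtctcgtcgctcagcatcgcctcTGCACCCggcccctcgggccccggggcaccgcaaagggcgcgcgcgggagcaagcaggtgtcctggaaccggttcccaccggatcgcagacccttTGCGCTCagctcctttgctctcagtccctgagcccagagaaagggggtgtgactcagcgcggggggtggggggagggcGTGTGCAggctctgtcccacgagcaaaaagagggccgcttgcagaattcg
Slc30a1: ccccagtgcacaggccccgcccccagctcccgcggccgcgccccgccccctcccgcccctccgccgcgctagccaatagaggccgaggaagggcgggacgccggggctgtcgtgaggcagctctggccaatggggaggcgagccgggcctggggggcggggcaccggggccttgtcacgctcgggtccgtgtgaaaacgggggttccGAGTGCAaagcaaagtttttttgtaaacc

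Mt2 had 3 matches, which began 223, 128 and 50 bases before its RefSeq start. Mt1 had 1 in its window, at 23 bases, and Slc30a1 had 1, at 43 bases. Bases after the RefSeq starts were not searched. These numbers are therefore not totals of a gene's elements, and they cannot rank the genes by such elements. Of all 32851 RefSeq windows of 250 bases before a start, 21.4% held at least 1 match and 1.26% at least 3, so a single match is common. RefSeq windows were found for 9 of the 10 genes. The exporter gene Slc30a4 held 2 matches and 1 of the 2 windows of Slc39a8 held 1, whereas Mtf1, Slc39a1, Slc39a13 and Slc30a7 held none. The STAT-type motif TTCNNNGAA, which reads the same on both strands in its fixed letters, was in 0 of the members' 10 windows and in 7.02% of all windows. A match is only a description of the letters, and its absence says nothing about a factor elsewhere.

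Before the genes are described, 1 library has to be set apart. Control replicate 1 held 99 genes, 97 of them protein-coding, at 10 CPM or more and at least 20 times the level of every other library (CPM, counts per 1000000 reads after TMM normalization, which balances library composition). The other libraries held 0 such genes except cachexia replicate 2, which held 1. Genes of that group include Epcam, an epithelial adhesion molecule, Cldn2, a tight-junction protein, and Foxj1, a regulator of motile cilia, as well as the metallothionein Mt3. None of the 10 genes described here was among them. The epididymis marker list was near 0 in all 6 mice, with a summed level of 3.71 CPM in control replicate 1 and between 0.123 and 1.28 CPM elsewhere, its most abundant gene being Adam7. This list holds 6 genes of the epithelium of the epididymis and covers no other tissue. Where the genes raised in control replicate 1 came from was not tested. Values without that library are given for Mt1, Slc39a8, Slc39a14 and Slc30a1, and for other named genes where leaving it out changed a call or moved the value widely.

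Of the 10 genes, 2 were higher in cachectic than in control mice, 0 were lower and 8 did not pass the test (edgeR quasi-likelihood test, adjusted p under 0.05 by Benjamini-Hochberg over all 16003 genes). Among all tested genes 9% were called higher (1440 genes) and 8.63% lower (1381 genes). Both genes that rose, Slc39a8 and Slc39a14, encode zinc importers of the ZIP family. The 10 genes had a median log2 fold change of 0.32, against -0.00 for all tested genes. In 3 of them, Slc39a8, Slc39a14 and Slc30a1, every cachectic mouse lay above every control mouse, a pattern shown by 20.4% of all tested genes. In 0 of them did every cachectic mouse lie below, against 20.1% of all tested genes.

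**Figure D1:**
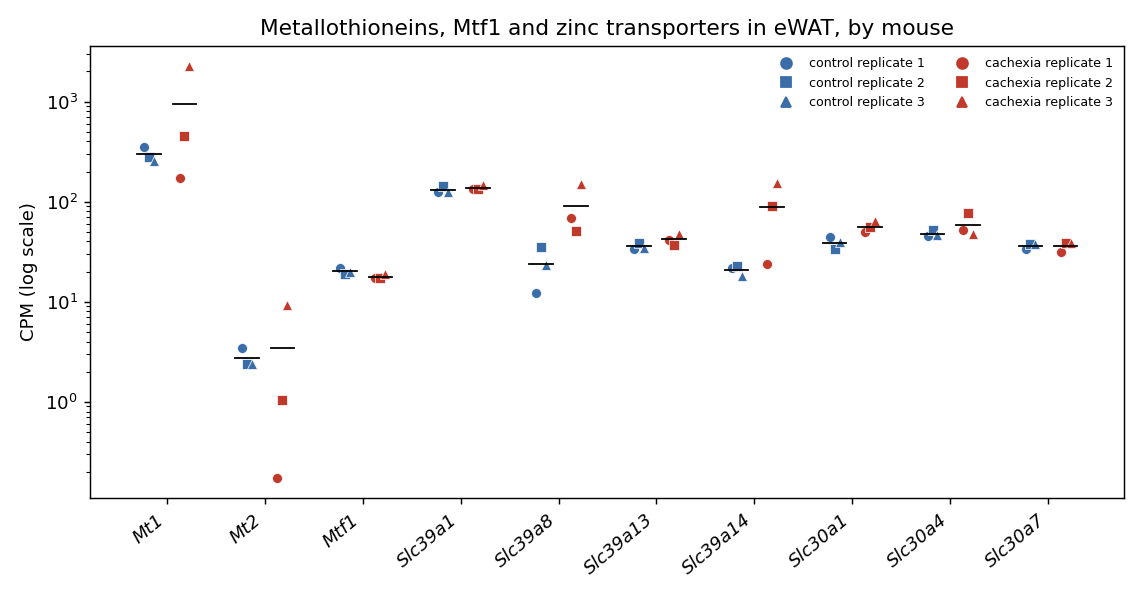
CPM of each gene in each mouse on a log axis; circles, squares and triangles are replicates 1, 2 and 3, blue is control, red is cachexia, and black lines are group means. Mt1 ran from 171 to 2244 CPM among the cachectic mice, while Slc39a1, Slc39a13 and Slc30a7 varied little in any mouse.

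Mt1, the most abundant of the 10 genes in every mouse in CPM and in CPM per kilobase of gene length, spans chr8:94179082-94180327 on the plus strand (GRCm38, the coordinates of the count table). It was measured at 355.8, 279.9 and 253.1 CPM in control replicates 1, 2 and 3. In cachexia replicates 1, 2 and 3 it was 171.3, 451.5 and 2244 CPM. The cachectic mice thus included the lowest and the highest value of the study, and the groups overlapped. Cachexia replicate 3 alone stood at 7.57 times the control mean, and Mt1 took 0.229% of all its reads, whereas its share lay between 0.0170% and 0.0468% in the other mice. Over all mice the log2 fold change was 1.69 with a standard error (SE) of 0.80 and a 95% interval from -0.15 to 3.53 (adjusted p = 0.178), and without control replicate 1 it was 1.84 (adjusted p = 0.242). Without cachexia replicate 3 the log2 fold change was 0.08 (adjusted p = 0.917), so the difference in means rested on that mouse, and without cachexia replicate 1 it was 2.18 (adjusted p = 0.0596). The size also depended on the test, at 0.95 with limma-voom (adjusted p = 0.421) and 0.91 with limma on log2 FPKM at a pseudocount of 1 (adjusted p = 0.488). The coefficient of variation was 18.0% among the control mice and 118% among the cachectic mice.

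Mt2, the second classical metallothionein, lies next to Mt1 at chr8:94172664-94173568 on the plus strand and was far weaker here per kilobase, with a mean level of 4.65 CPM per kilobase in control mice against 238 for Mt1. It was covered by 68, 42 and 42 reads in the control mice, or 3.41, 2.41 and 2.38 CPM. In the cachectic mice it had 3, 17 and 140 reads, or 0.175, 1.04 and 9.18 CPM. As with Mt1, cachexia replicate 1 was the lowest and cachexia replicate 3 the highest of the 6, and the groups overlapped. The log2 fold change of 0.33 had an SE of 1.04 (adjusted p = 0.853) and became -2.16 without cachexia replicate 3. The Mt2 values carry a limit of annotation: Gm45774, on the opposite strand, overlaps 432 of the 588 exon bases of Mt2. The strand setting of the counting is not given in the sources used here, so reads of the pair cannot be told apart, and the level of Mt2 is uncertain. No other annotated exon overlaps Mt1.

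The ratio of the metallothioneins was compared within each mouse. Per kilobase of gene length, Mt2 reached 2.03%, 1.82% and 1.99% of the level of Mt1 in the control mice. In the cachectic mice it reached 0.216%, 0.490% and 0.867%. Every cachectic mouse lay below every control mouse, including the mouse in which both genes were highest. The log2 ratio was -5.68 ± 0.08 (SD, n = 3) in control mice and -7.79 ± 1.01 (SD, n = 3) in cachectic mice, a difference of -2.11 with a two-sided exact permutation p of 0.1, the smallest that 3 against 3 mice allow. As a share of the reads of both genes, Mt2 was 0.407% in cachexia replicate 3 (exact Clopper-Pearson 95% interval 0.343% to 0.481%) and 0.853% in control replicate 2 (0.615% to 1.15%). These intervals cover counting error alone, and the overlap with Gm45774 applies to the ratio as well. Gm45774 itself had 15, 20 and 18 reads in the control mice and 8, 12 and 53 in the cachectic mice, so it too was highest in cachexia replicate 3.

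**Figure D2:**
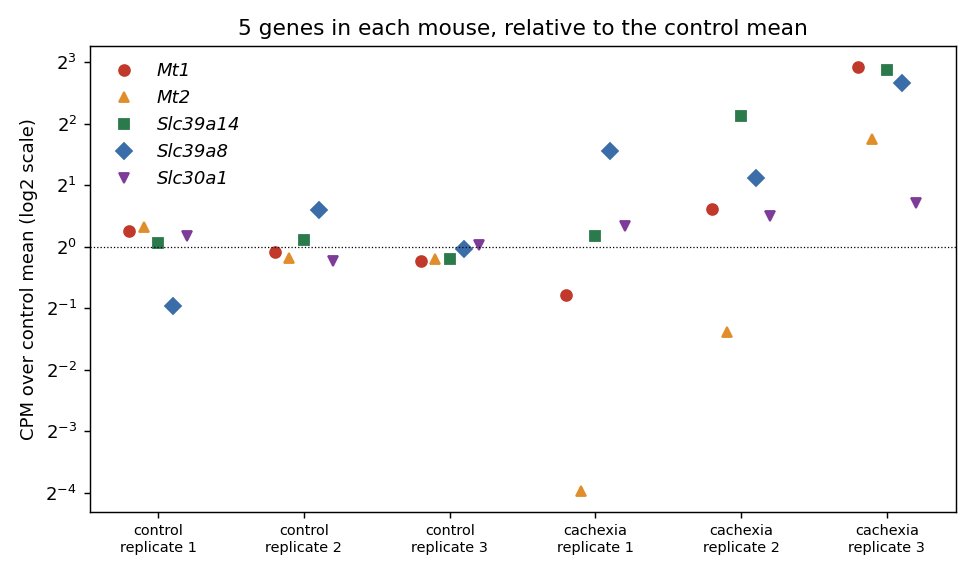
CPM of 5 genes in each mouse divided by the gene's control mean, on a log2 axis; the dotted line is the control mean and the mice have no order. In cachexia replicate 3, Mt1, Slc39a14 and Slc39a8 stood at 7.57, 7.30 and 6.36 times their control means, whereas in cachexia replicate 1 Slc39a8 stood at 2.94 times and Mt1 at 0.578 times.

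Among tested genes within 200 kb on either side of the metallothionein cluster, Rpl10-ps5 was called higher and Gnao1 lower in cachectic mice. The other neighbors named here did not pass. Nup93, a nuclear pore gene on the Mt1 side, had 30.1, 24.4 and 26.8 CPM in control mice and 17.7, 21.1 and 25.8 CPM in cachectic mice (log2 fold change -0.33, adjusted p = 0.220). Gnao1, a G protein subunit gene on the Mt2 side, was lower in every cachectic mouse, with a log2 fold change of -1.56 (SE 0.31, adjusted p = 0.0156). Rpl10-ps5, a ribosomal protein pseudogene inside Nup93 whose reads may come from its parent gene, was higher at 1.23 (adjusted p = 0.0358), a call lost without control replicate 1 (adjusted p = 0.0509). Nudt21, Ogfod1 and Bbs2, on the Mt2 side, had log2 fold changes of 0.39, 0.27 and 0.52 (adjusted p = 0.0604, 0.181 and 0.107), with every cachectic mouse above every control mouse.

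Mtf1, which encodes the zinc-sensing activator of metallothionein genes, had a mean level of 20.2 CPM in control mice, with single control mice at 1.08, 0.933 and 0.992 times that mean. The cachectic mice were at 0.848, 0.856 and 0.937 times the same mean. The groups overlapped by a narrow margin. The log2 fold change of -0.18 (SE 0.14, adjusted p = 0.380) did not pass the test, and its 95% interval ran from -0.50 to 0.13. A short list of 4 further genes that respond to MTF1 was also examined, and of these 4 tested genes 0 passed in either direction. Their median log2 fold change was 0.33, with Slc39a10, a zinc importer gene, at 0.41 (adjusted p = 0.157) and Gclc, for glutathione synthesis, at 0.25 (adjusted p = 0.331). Slc40a1, the iron exporter ferroportin, was at 75.8 CPM in cachexia replicate 1 and between 16.0 and 23.5 CPM in every other mouse.

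Among the zinc importers, Slc39a8 rose. It was at 12.1, 35.5 and 23.1 CPM in the control mice and at 69.2, 51.3 and 149.8 CPM in the cachectic mice. All 3 cachectic mice lay above the highest control mouse, and the spread within each group was wide, with coefficients of variation of 49.8% and 58.2%. The log2 fold change was 1.94 with an SE of 0.48 and a 95% interval from 0.82 to 3.06 (adjusted p = 0.0318), and the exact permutation p was 0.1, the smallest possible. Without control replicate 1, in which Slc39a8 was lowest, the log2 fold change was 1.62 (adjusted p = 0.0630). Without cachexia replicate 3 it was 1.36 (adjusted p = 0.0709), without cachexia replicate 1 it was 2.09 (adjusted p = 0.0542) and without control replicate 3 it was 1.92 (adjusted p = 0.109), so with any of these 4 mice left out the call was lost although the direction held. The gene spans chr3:135825279-135888572 on the plus strand, and no exon of another gene overlaps its exons.

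Slc39a14, on the minus strand at chr14:70303469-70351425, rose as well, but not in every cachectic mouse by much. The control mice had 21.8, 22.6 and 18.1 CPM. The cachectic mice had 23.6, 90.9 and 152.2 CPM, so cachexia replicate 1 lay just above the highest control mouse while the other two stood at 4.36 and 7.30 times the control mean. The log2 fold change was 2.09 with an SE of 0.56 and a 95% interval from 0.80 to 3.38 (adjusted p = 0.0390; exact permutation p = 0.1, the smallest possible). The call held without cachexia replicate 1 (log2 fold change 2.54, adjusted p = 0.00412). It was lost with any other mouse left out: the adjusted p was 0.0839, 0.103 and 0.130 without control replicate 1, 2 and 3, and 0.0808 and 0.0975 without cachexia replicate 2 and 3. It was also lost with limma-voom (adjusted p = 0.0958) and with limma on log2 FPKM (adjusted p = 0.111 with a pseudocount of 1 and 0.0992 with 0.1). The same held with the replicate number as a block (adjusted p = 0.0890).

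The remaining importers among the 10 did not pass the test. Slc39a1, which encodes the cell-surface importer ZIP1, had 124.5, 142.1 and 124.5 CPM in control mice and 134.5, 133.4 and 145.5 CPM in cachectic mice. Its log2 fold change of 0.08 (SE 0.12, adjusted p = 0.692) had a 95% interval from -0.21 to 0.37, and 21.8% of its 50-base windows also occur in the pseudogene Slc39a1-ps. Slc39a13, whose product ZIP13 moves zinc between compartments inside the cell and is known for its part in connective tissue, had 33.8, 38.7 and 34.5 CPM against 41.2, 37.2 and 47.7 CPM. It differed by 0.24 on the log2 scale (SE 0.14, adjusted p = 0.268), with overlapping groups. An exon of Psmc3, a proteasome gene on the other strand, overlaps 215 of its bases.

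Slc30a1, the exporter gene that responds to zinc through MTF1, came close to the threshold. It spans chr1:191906767-191913247 on the plus strand. Control mice had 43.9, 33.3 and 39.6 CPM and cachectic mice 49.3, 55.3 and 63.7 CPM, without overlap. On the log2 scale it differed by 0.53 with an SE of 0.15 and a 95% interval from 0.17 to 0.88 (adjusted p = 0.0510, exact permutation p = 0.1). Without control replicate 1 the difference was 0.62 (adjusted p = 0.0539). By DESeq2 the adjusted p was 0.0290 and with protein-coding genes alone 0.0463, so this gene changed sides of the threshold with the test. Slc30a4, which loads zinc into vesicles, was at 45.0, 52.0 and 46.2 CPM in control mice and 52.3, 77.2 and 47.1 CPM in cachectic mice, with 1 cachectic mouse high and the groups overlapping (log2 fold change 0.30, adjusted p = 0.311). Slc30a7, which supplies zinc to enzymes of the secretory pathway, was at 33.6, 37.5 and 38.0 CPM against 31.7, 38.8 and 38.4 CPM. Its log2 fold change was -0.00 (SE 0.13, adjusted p = 0.984) with a 95% interval from -0.31 to 0.30.

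**Figure D3:**
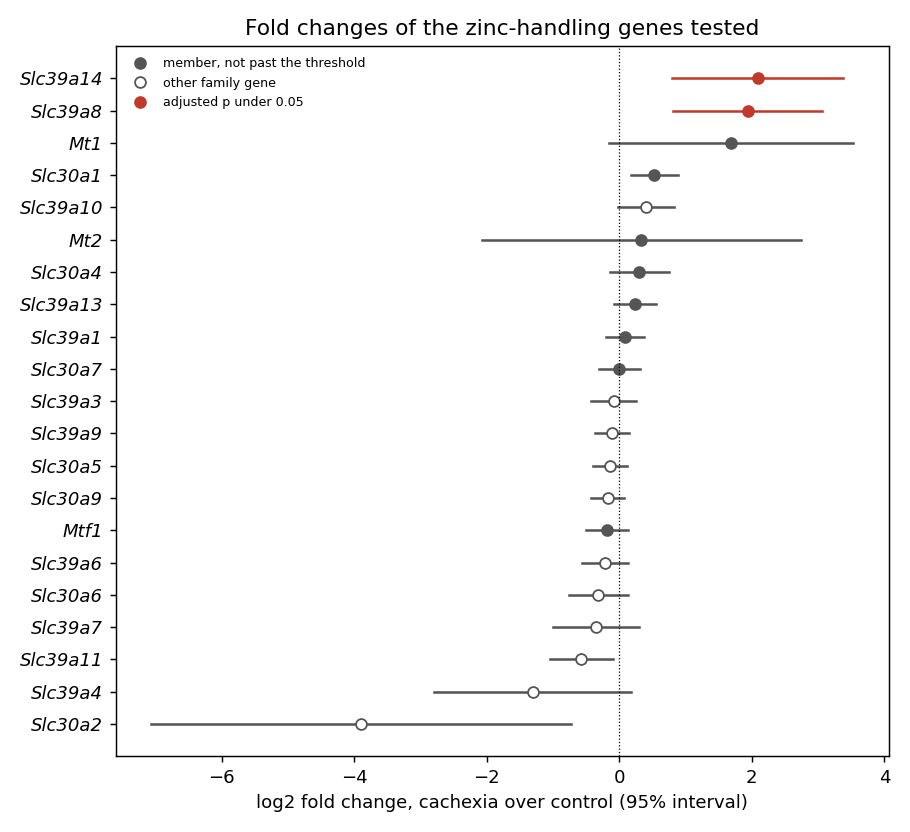
Log2 fold changes of cachexia over control with 95% intervals (edgeR) for the 10 genes (filled) and the other tested zinc-family genes (open); red marks an adjusted p under 0.05. Slc39a14 at 2.09 and Slc39a8 at 1.94 are the only red points, and the interval of Mt1 runs from -0.15 to 3.53.

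The other metallothionein, ZIP and ZnT genes, with the zinc exporter gene Tmem163, numbered 20, of which 11 were tested and 0 passed in either direction. At an unadjusted p under 0.05 in the same edgeR fit 2 of the 11 were lower, Slc39a11 and Slc30a2, against 17.0% of all tested genes, and DESeq2 called 1 of the 20 lower. Their median log2 fold change was -0.22, and 10 of the 11 had a negative value, the exception being Slc39a10 at 0.41. In 4 of the 11, Slc39a7, Slc39a11, Slc30a5 and Slc30a9, every cachectic mouse lay below every control mouse, against 20.1% of all tested genes. Slc39a11, an importer gene, was the clearest of these, at 15.5, 13.1 and 11.6 CPM in control mice and 8.86, 10.6 and 7.54 CPM in cachectic mice (log2 fold change -0.58, SE 0.21, adjusted p = 0.0914). Slc30a8, the exporter of pancreatic beta cells, and Mt4, the metallothionein of stratified epithelium, had 0 reads in all 6 mice.

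In the same list, 5 genes stood at more than 3 times the level of every other mouse in control replicate 1. Mt3, the metallothionein best known from the brain, was at 32.4 CPM there and between 0.0567 and 0.197 CPM in the other mice. Slc30a2 was at 28.4 CPM, against 0.467 to 1.64 CPM elsewhere, and Slc30a3 was at 18.3 CPM, against at most 0.0573 CPM elsewhere. Slc39a4, the intestinal importer, was at 10.9 CPM against 1.70 to 3.06 CPM. Slc39a5, another importer gene, had 33 reads there (1.66 CPM) and at most 7 reads elsewhere. Mt1 in the same mouse was at 1.20 times the control mean. The negative fold changes of Slc30a2 (log2 fold change -3.90, adjusted p = 0.0880) and Slc39a4 (log2 fold change -1.31, adjusted p = 0.193) went with 1 library, and without it they were -0.67 (adjusted p = 0.520) and -0.19 (adjusted p = 0.780).

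**Figure D4:**
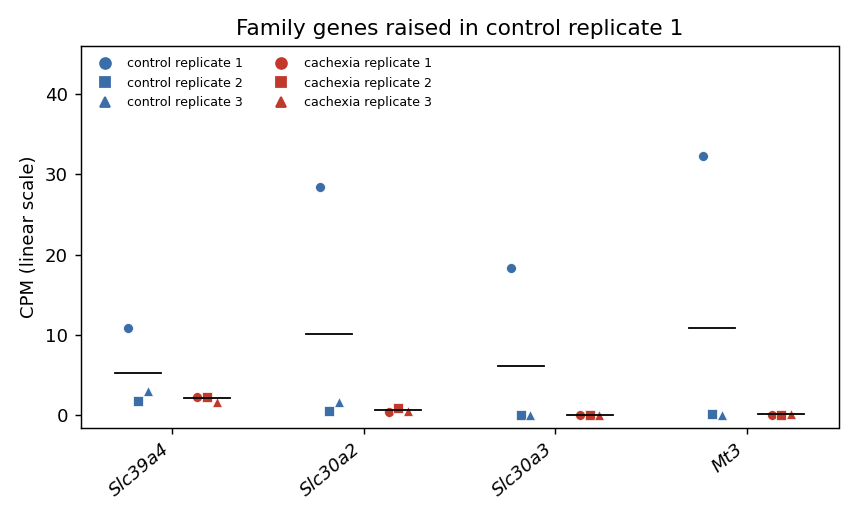
CPM on a linear axis of 4 zinc-family genes in each mouse, with symbols as for the plot of the 10 genes. The blue circle, control replicate 1, stands alone at 10.9, 28.4, 18.3 and 32.4 CPM for Slc39a4, Slc30a2, Slc30a3 and Mt3.

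Levels were compared between genes as CPM per kilobase of gene length. Slc39a1 was the highest transporter, with a mean level of 55.1 CPM per kilobase in control mice and 58.3 in cachectic mice. The 14 ZIP genes of the file summed to 102, 111 and 101 CPM per kilobase in control mice and 113, 114 and 140 in cachectic mice. Of that sum, Slc39a1 made up 51.8%, 54.0% and 52.3% in control mice and 50.5%, 49.5% and 43.9% in cachectic mice. Slc39a8 made up 1.55%, 4.17% and 2.99% in control mice and 8.02%, 5.88% and 13.9% in cachectic mice. Slc39a14 made up 2.04%, 1.92% and 1.71% against 1.99%, 7.56% and 10.3%, so its share in cachexia replicate 1 lay within the control range. Both shares were thus largest in cachexia replicate 3. The 10 ZnT genes summed to 57.0, 40.9 and 41.0 CPM per kilobase in control mice and 40.7, 47.0 and 44.4 in cachectic mice, with control replicate 1 the highest.

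**Figure D5:**
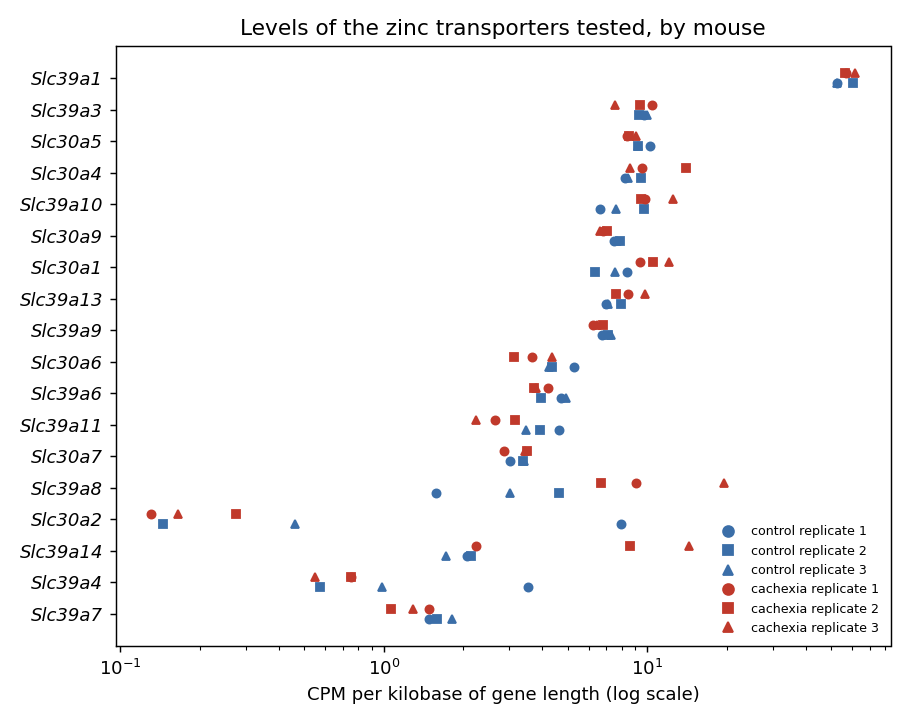
CPM per kilobase of gene length on a log axis for each tested ZIP and ZnT gene in each mouse, ordered by the control mean; symbols are as for the plot of the 10 genes. Slc39a1 is highest throughout, and the red points of Slc39a8 lie to the right of all its blue points.

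Over the 6 mice, the levels on the log2(CPM + 0.5) scale were described by Pearson's r, with group, library and depth shared between genes. Mt1 and Mt2 had an r of 0.80, and Mt1 and Slc39a14 one of 0.86. Slc39a8 and Slc39a13 had an r of 0.95. The 5 protein-coding genes outside the 10 most like Mt1 were Pum3 (r = 0.988), Tsc22d3 (r = 0.983), Tpmt (r = 0.980), Alpk1 (r = 0.980) and Srp19 (r = 0.977). Tsc22d3, the glucocorticoid-induced gene GILZ, was at 189.0, 137.6 and 175.6 CPM in control mice and 123.8, 202.8 and 572.9 CPM in cachectic mice, so as with Mt1 the cachectic mice held both extremes. The 5 most like Slc39a14 were Slc38a2 (r = 0.998), 4833420G17Rik (r = 0.995), Srek1 (r = 0.990), Banp (r = 0.990) and Il2rg (r = 0.988). Slc38a2, an amino acid transporter gene, was at 109.6, 114.6 and 105.2 CPM in control mice and 112.8, 185.7 and 209.9 CPM in cachectic mice, with cachexia replicate 1 among the control values. These genes were ranked by r among all tested protein-coding genes over only 6 mice. Their likeness to Mt1 or Slc39a14 therefore follows from the ranking and is no separate evidence of a link.

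Lists of genes tied to the hormone and the cytokine that can switch metallothioneins on were examined beside them. The lists were chosen with earlier results of these data known. For scale, 9% of all tested genes were called higher and 8.63% lower. Of 10 glucocorticoid-responsive genes, 5 were higher and 0 lower, with a median log2 fold change of 1.63. Sgk1, a kinase gene, was at 71.8, 80.4 and 70.6 CPM in control mice and 547.3, 304.2 and 413.7 CPM in cachectic mice (log2 fold change 2.51, adjusted p = 0.00140). The clock gene Per1 had a log2 fold change of 1.66 (adjusted p = 0.00192). Cachexia replicate 1 lay above every control mouse in Sgk1, Per1, Klf9, Dusp1, Ddit4, Pdk4 and Cebpd, and narrowly in Zbtb16. The exceptions on this list were Fkbp5, within the control range (191.1 CPM), and Tsc22d3, below every control mouse. A second list held 14 genes that carry IL-6 and STAT3 signaling or are taken to respond to it. Of these, 6 were higher and 0 lower, with a median log2 fold change of 0.80. Il4ra, a cytokine receptor gene, had a log2 fold change of 1.82 (adjusted p = 0.00118) and Socs3, the feedback inhibitor of STAT3 signaling, one of 1.10 (adjusted p = 0.0141). Hp, the acute-phase protein haptoglobin, was at 1447 CPM in cachexia replicate 1, below all control mice, and at 5482 and 8397 CPM in the other cachectic mice. In cachexia replicate 1, Socs3, Stat3, Il6ra, Il6st, Il4ra and Junb of this list lay above every control mouse, and Osmr lay within the control range. Lcn2, the iron-sequestering protein lipocalin 2, was at 147.8, 8.20 and 9.80 CPM in control mice and 18.3, 81.6 and 105.2 CPM in cachectic mice, so its highest value was in the control library set apart above (log2 fold change 0.30, adjusted p = 0.871). Without that library Lcn2 was higher in cachectic mice, at 2.92 (SE 0.70, adjusted p = 0.0385), so both its size and its call turned on 1 mouse. Whether either signal bears on Mt1 or on the importers was not tested.

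Other metals were examined for comparison. Of 11 tested copper-handling genes, 0 were higher and 1 was lower, the metalloreductase gene Steap4, at a log2 fold change of -1.56 (SE 0.23, adjusted p = 0.00534). Over all tested genes 9% were called higher and 8.63% lower, so 1 lower gene of 11 is near that share. Cox17, a copper chaperone gene, was at 0.92 (SE 0.27, adjusted p = 0.0502), with every cachectic mouse above every control mouse. Of 10 iron-transport genes, 0 were higher and 3 were lower: Steap3 at -1.53, Heph at -1.08 and the transferrin receptor gene Tfrc at -0.84, the last a call lost without control replicate 1 (adjusted p = 0.0697). Ncoa4, also on this list, was at 0.67 (SE 0.23, adjusted p = 0.0799), with every cachectic mouse above every control mouse. Without control replicate 1 it was at 0.48 (adjusted p = 0.152). The differences between the zinc, copper and iron lists were not tested.

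In bulk tissue, fewer cells of a type and less RNA per cell cannot be told apart, and cell type markers moved between the groups. Marker calls stand beside 9% of all tested genes called higher and 8.63% called lower. Adipocyte markers were abundant in all mice, with a summed level of 24970, 28858 and 31877 CPM in control mice and 40347, 26258 and 34158 CPM in cachectic mice. Of these 9 markers 1 was higher (Cidec) and 1 lower (Lep), and the most abundant was Cfd. Both calls were lost without control replicate 1 (adjusted p = 0.0736 for Cidec and 0.0772 for Lep). Neutrophil markers rose in 10 of the 11 tested, from a sum of 33.4, 51.0 and 34.6 CPM to 295, 269 and 822 CPM, with S100a9 the most abundant and 0 of the list's genes at 0 in all mice. Elane, Ngp, Ltf, Mmp9 and Camp did not pass without control replicate 1 (adjusted p = 0.0514, 0.0524, 0.0544, 0.117 and 0.235). Their log2 fold changes stayed positive, and the other tested markers of the list passed. Ly6g, which defines mouse neutrophils, had no reads in control mice and 0.467, 0.614 and 0.393 CPM in cachectic mice. The neutrophil sum was highest in cachexia replicate 3, as were Mt1, Slc39a8 and Slc39a14. Red blood cell markers rose in 6 of 6 tested, from a sum of 451, 252 and 275 CPM to 2856, 1334 and 2557 CPM, with Hbb-bs the most abundant.

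Endothelial markers rose in 3 of 8 (Pecam1, Cdh5 and Cldn5), with a sum of 1650, 1621 and 1564 CPM in control mice and 2753, 3361 and 2236 CPM in cachectic mice. The calls of Cdh5 and Cldn5 were lost without control replicate 1 (adjusted p = 0.0837 and 0.0515). Pecam1 then still passed (adjusted p = 0.0397) and Vwf was gained (adjusted p = 0.0295). Of 8 progenitor and fibroblast markers 1 was higher and 3 were lower, and their sum fell from 6009, 5252 and 5844 CPM to 3391, 2840 and 2480 CPM. Of 8 macrophage markers 1 was higher and 1 lower, of 7 tested lymphocyte markers and of 6 mesothelial markers 0 passed in either direction, and 2 tested muscle markers gave 0 calls. The muscle list summed to 24.4, 36.7 and 39.7 CPM in control mice and 7.64, 7.98 and 58.9 CPM in cachectic mice, highest in cachexia replicate 3. The part of these shifts in the levels of Mt1, Slc39a8 and Slc39a14 was not tested.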

How the data were processed

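RNA libraries of eWAT were sequenced as paired reads of 150 bases. Per the labels and the study's methods, the authors aligned reads with Hisat2, counted them per gene with featureCounts 1.5.0-p3 and compared groups with DESeq2 1.16.1. The deposited files give raw counts per gene and FPKM (counts per kilobase of gene and 1000000 reads) made by the authors. The strand setting is not given in the sources used here. The processing notes name mm9, but 99.9% of gene identifiers occur in GENCODE M21 (GRCm38), 98.3% of those with the same coordinates, and so do all 10 members. Columns with the authors' own fold changes and p-values were not used, nor were 8 further columns of values in the same file.

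Low counts were removed by filterByExpr of edgeR 4.0.16 (R 4.3.3). TMM factors were then set and edgeR fitted a quasi-likelihood test of cachexia against control without covariates, with Benjamini-Hochberg adjustment over the 16003 genes kept and a threshold of 0.05. The study's methods used DESeq2, run here (1.42.0) as an alternative, with limma 3.58.1 (voom on counts, and log2 of FPKM with a pseudocount of 1 or 0.1). Single values were compared by two-sided exact permutation tests on log2(CPM + 0.5). Totals ran from 14928766 to 18855546 reads per mouse. The tests across genes were tested on simulated data. Named genes were the 10 members, tested zinc-family genes by their values, list genes with the smallest p, markers, and the 5 genes most correlated with Mt1 or Slc39a14. Epcam, Cldn2, Foxj1, the genes beside the metallothioneins, Hp, Cox17, Ncoa4, Lcn2, Fkbp5, Tsc22d3, Slc38a2 and Slc40a1 were singled out after their values were seen. So were the further genes named for cachexia replicate 1. The members and all lists were chosen with earlier results of these data known.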

Additional observations from a re-analysis of the deposited data

How the results depend on the processing

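With 3 mice a group, 1 library can decide a call. The 2 members called higher became 1 with limma-voom, with limma on log2 FPKM at either pseudocount and with the replicate number as a block, in each case Slc39a8, and 0 to 1 with any single mouse left out; 0 members were lower in any setting. The log2 fold change of Slc39a14 kept its direction throughout but missed the threshold at 1.73 with limma-voom, 1.38 and 1.67 on log2 FPKM with a pseudocount of 1 and 0.1, and 1.76 with the replicate block, and it ranged from 1.46 to 2.54 with a mouse left out. With the block Mt1 was at 0.89. Slc39a8 ranged from 1.36 to 2.36 with a mouse left out. Slc30a1 passed at 0.52 with DESeq2 and at 0.55 with protein-coding genes alone. Mt2 turned negative, at -1.19 with limma-voom, -0.52 and -1.06 on log2 FPKM with a pseudocount of 1 and 0.1 and -0.86 with the block, and ranged from -2.16 to 0.90 with a mouse left out. Slc30a7 stayed near 0, at 0.052 with plain library totals, 0.020 with protein-coding genes alone and -0.060 to 0.084 with a mouse left out. The Mt2 to Mt1 ratio stayed lower in cachexia, from -2.58 to -1.58 on the log2 scale with a mouse left out; on FPKM it is the same by construction. The other zinc-family genes called lower numbered 3 with no filter on low counts (Mt3, Slc30a2 and Slc30a3, all highest in control replicate 1), 1 with DESeq2 (Slc30a2) and 0 to 1 with a mouse left out. All genes called higher numbered 913 with the block. With a mouse left out 382 to 1197 were called higher and 446 to 1142 lower, the fewest without control replicate 3.

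No pairing by replicate number was seen: the deviations of same-numbered mice correlated at -0.003, -0.011 and 0.008, and not every mouse correlated best with its own number. With deviations from means of 3 mice, this check cannot exclude a pairing. In an alternative chosen after seeing the data, control replicate 1 and cachexia replicate 3 were both left out. Then 1 member was called, Slc39a8, whose log2 fold change of 1.04 was the lowest of its settings, Slc39a14 was at 1.49 and Mt2 at -1.97. The causes were not tested. Mt2 had 3 to 140 reads a mouse, the lowest depth of the 10 genes.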
